A study of Mus musculus with 6 samples.

Results

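The genes described here are the core of the TGF-β pathway in cultured mouse podocytes. These are the ligands Tgfb1, Tgfb2 and Tgfb3, the receptors Tgfbr1 and Tgfbr2, the signal-carrying SMADs Smad2, Smad3 and Smad4, and the inhibitory Smad7. They are given by name, and every probe whose transcript accession belongs to 1 of these 9 genes was taken, which gave 14 of the 39429 gene probes on the array. Of these, 13 probes, at least 1 for each gene, were bright enough to be tested, among 25541 probes tested in all. The second Tgfbr1 probe, A_55_P2137211, was not well above background on any of the 6 arrays, so it has no value to compare.

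TGF-β ligands are secreted in a latent form and, once released, bring together a type II and a type I receptor. The type II receptor, encoded by Tgfbr2, activates the type I receptor, encoded by Tgfbr1, which phosphorylates SMAD2 and SMAD3. These join the shared partner SMAD4 and enter the nucleus, while SMAD7, itself a target of the pathway, blocks the type I receptor. In the kidney glomerulus, TGF-β is known for driving matrix deposition and podocyte loss in scarring disease.

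The cells were podocytes, the epithelial cells around the glomerular capillaries, immortalised with a temperature-sensitive SV40 T antigen. They were grown at 33 °C in 10% serum and then differentiated at 37 °C for 10 days in 5% serum. The 3 groups were shTug1 clone 2 and shTug1 clone 3, which carried a lentiviral pGIPZ short hairpin against the long noncoding RNA Tug1, and shControl, which carried a scrambled hairpin from the same vector. Each group had 2 arrays described as biological replicates, each shTug1 group was 1 clone, and nothing more is said of separate cultures, so that each p-value measures only the spread between these arrays. The T antigen and the lentiviral vector were shared by all groups. In bulk RNA, a change in the RNA per cell and a change in the mix of cells cannot be told apart.

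Values are log2 signals relative to the 75th percentile of the array, so that 0 is the level of a spot brighter than most and 1 unit is a doubling. That percentile lay at an intensity of 569.2 to 1055 on the arrays labelled shTug1, against 324.3 and 363.3 on the shControl arrays, and 58.2 to 68.0% of probes were well above background. The median probe stood 0.57 lower in the shTug1 clones than in shControl on this scale, and 0.18 lower after quantile normalization, so each difference is also given relative to it where the call turns on it. Replicate arrays correlated at r = 0.981 in clone 2, 0.989 in clone 3 and 0.961 in shControl. The shControl arrays shared 1 scan time and all arrays labelled shTug1 shared another, which is read here as 1 slide each. The effect of the slide or scan and that of the hairpin therefore cannot be told apart. Tug1 itself was not lower in both clones: its 1 probe above background on all arrays, A_52_P599162, read −1.86 and −1.88 in clone 2 and −3.10 and −3.23 in clone 3, against −2.88 and −2.49 in shControl. The difference was 0.81 for clone 2 (limma, adjusted p = 0.0823) and −0.48 for clone 3 (limma, adjusted p = 0.329), so shTug1 below names the label of the arrays. Of 10 podocyte markers, 9 were well above background on every array, and 5 of the 9 tested were lower in the clones, where 29.6% of all genes were.

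**Figure D1:**
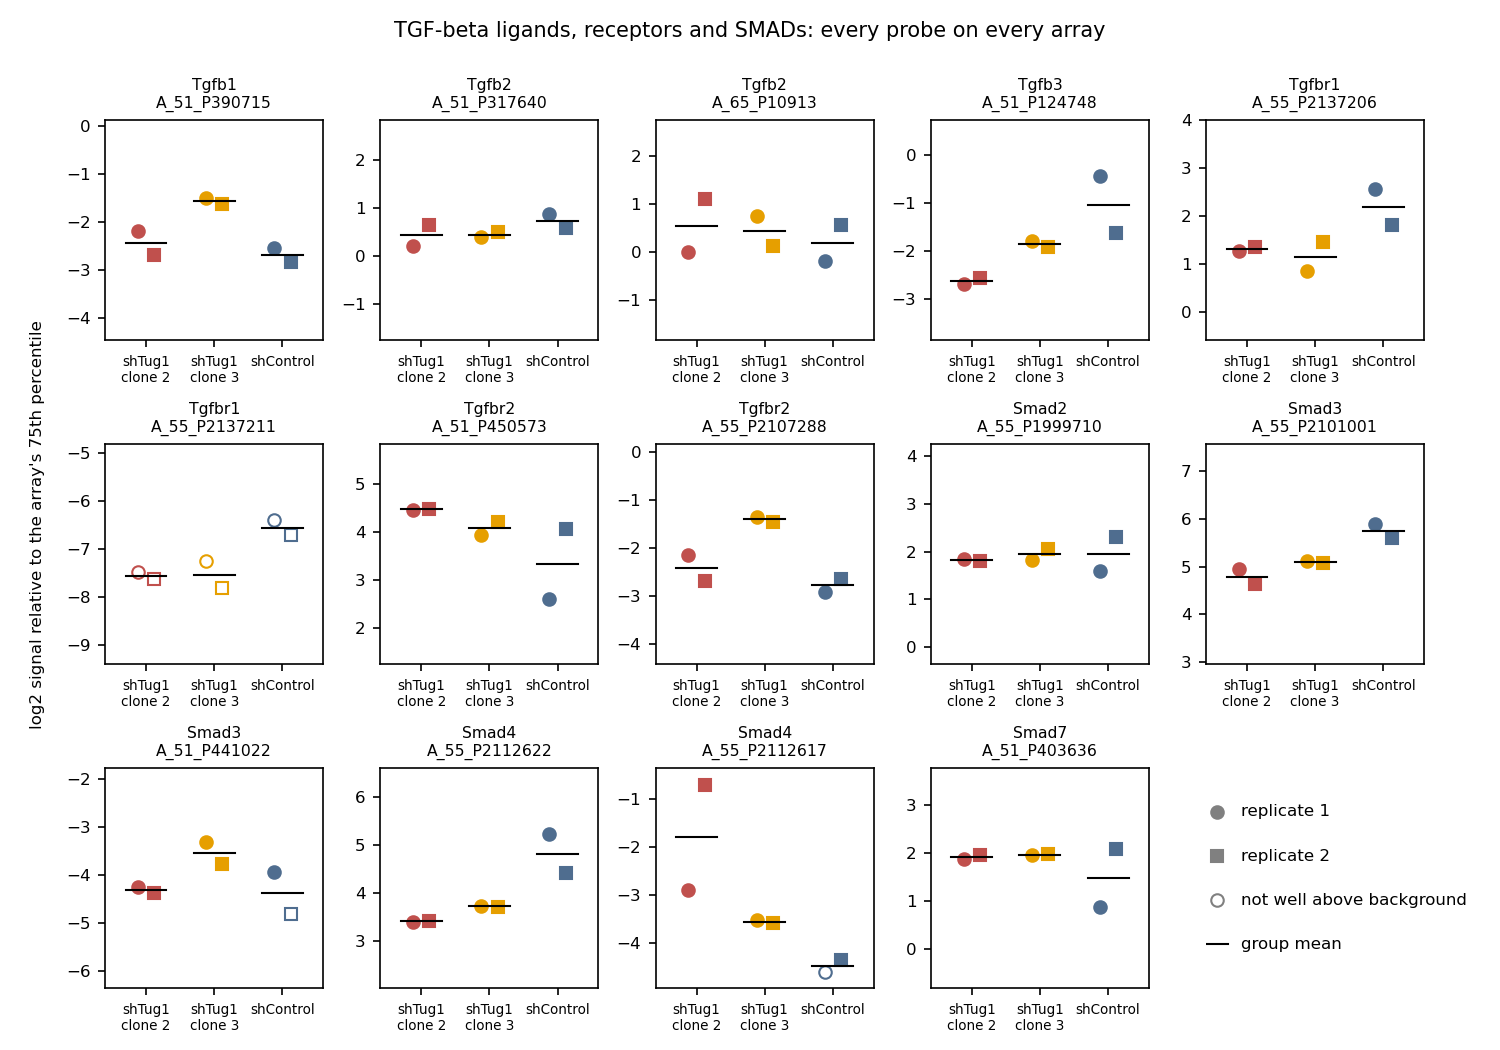
Log2 signal relative to the array's 75th percentile for all 14 probes of the 9 genes, in 1 panel per probe, with shTug1 clone 2, shTug1 clone 3 and shControl along the x axis. Circles are replicate 1 and squares replicate 2, open symbols were not well above background, and bars are group means. All 4 shTug1 arrays lie below both shControl arrays for Tgfb3 and for the brighter Smad4 probe, while the shControl arrays of Smad2 lie on either side of all 4 shTug1 arrays, as do those of Smad7.

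The comparison of both clones with shControl asked whether podocytes with the Tug1 hairpin differ in this pathway. The mean of the clones was lower for Tgfb3 and for 1 probe of Smad4, and higher for the other probe of Smad4, which is dim and was tested only because the shTug1 arrays read it above background. No other member probe passed the threshold (limma, Benjamini-Hochberg adjusted p under 0.05 over all probes). Thus 2 of 13 member probes were lower, where 27.6% of all probes tested were, and 1 was higher, where 11.8% were. Both shares are near or under the background of the array. In 4 member probes all shTug1 arrays lay below both shControl arrays, in 1 they lay above, and in 8 the groups overlapped. Across all probes tested 40.2% lay below and 14.0% above. The median difference over the 13 probes was 0.31, against −0.57 over all probes tested, and 9 of the 13 stood above the median probe. Some genes count more than once there, and the dimmer probes of Smad3 and Smad4 were tested only through the shTug1 arrays. By the brightest probe, the differences were −1.25 (Smad4), −1.21 (Tgfb3), −0.96 (Tgfbr1), −0.80 (Smad3) and −0.29 (Tgfb2). Those of Smad2, Smad7, Tgfb1 and Tgfbr2 were −0.06, 0.46, 0.68 and 0.94, against a median of −0.64 over all genes. After quantile normalization 13.5% of all probes were higher and 13.5% were lower, 3 member probes were higher and none was lower. The 3 higher were Tgfb1, Tgfbr2 on A_55_P2107288 and the dim Smad4 probe, which entered the test through the shTug1 arrays.

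Among the ligands, Tgfb3, the isoform best known from palate and lung development, read −2.68 and −2.56 in clone 2 and −1.79 and −1.91 in clone 3, against −0.44 and −1.62 in shControl. All 4 shTug1 arrays were below both shControl arrays, and the shControl arrays stood further apart than any pair of clone arrays. The mean of the clones was 2.31-fold lower, a log2 difference of −1.21 ± 0.38 (SE, 95% interval −2.10 to −0.32, limma, adjusted p = 0.0413). Relative to the median probe the difference was −0.64. The probe was printed 10 times on each array, and its values spread over the spots of 1 array with an SD of 0.060 to 0.17. The spot spread was thus far smaller than the gap between the shControl arrays. The difference was −0.62 without shControl replicate 1 (limma, adjusted p = 0.0852) and −1.14 after quantile normalization (limma, adjusted p = 0.0550), so that neither passed. Wherever 1 shControl array is left out, here and below, the other is assumed to vary as the arrays of the clones do.

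Tgfb1, the isoform most linked to scarring, read −2.19 and −2.69 in clone 2 and −1.51 and −1.63 in clone 3, against −2.54 and −2.84 in shControl. Both clone 3 arrays lay above every other array, whereas the clone 2 and shControl arrays overlapped. The mean difference was 0.68 ± 0.31 (SE, limma, adjusted p = 0.108) and did not pass the threshold. It did pass under other scalings, at 0.89 after quantile normalization (limma, adjusted p = 0.0390) and 0.98 after scaling to the median (limma, adjusted p = 0.0362). With another background correction, normexp, it was 0.08. Of the 3 ligand genes, Tgfb1 and Tgfb3 were each measured by 1 probe with 10 spots.

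Tgfb2, the third isoform, was measured by a pair of probes. A_51_P317640 read 0.22 and 0.65 in clone 2 and 0.39 and 0.51 in clone 3, against 0.87 and 0.60 in shControl. A_65_P10913 read 0.01 and 1.10 in clone 2 and 0.76 and 0.12 in clone 3, against −0.18 and 0.56 in shControl. The groups overlapped on both probes, and the replicates of A_65_P10913 differed by more than the groups did. The mean differences were −0.29 (95% interval −0.99 to 0.41, limma, adjusted p = 0.444) and 0.31 (95% interval −0.69 to 1.30, limma, adjusted p = 0.570). These intervals reach from a lower to a higher level, so either direction remains possible for Tgfb2.

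The estimates for the receptors had opposite signs, and none of their probes passed the threshold. Tgfbr1, the type I receptor kinase also called ALK5, read 1.27 and 1.36 in clone 2 and 0.85 and 1.45 in clone 3, against 2.56 and 1.82 in shControl on probe A_55_P2137206. All 4 shTug1 arrays were below both shControl arrays, with a mean difference of −0.96 ± 0.35 (SE, 95% interval −1.78 to −0.14, limma, adjusted p = 0.0618). The difference was −0.39 relative to the median probe and −0.55 after quantile normalization. It passed the threshold without shControl replicate 2, at −1.33 (limma, adjusted p = 0.0169), and with normexp, at −0.86 (limma, adjusted p = 0.0179).

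Tgfbr2, the ligand-binding type II receptor, read 4.46 and 4.48 in clone 2 and 3.94 and 4.20 in clone 3, against 2.59 and 4.07 in shControl on probe A_51_P450573. The 4 shTug1 arrays spanned 0.54, while the shControl arrays were 1.48 apart, and shControl replicate 2 fell among the clone 3 arrays. The mean difference was 0.94 ± 0.43 (SE, limma, adjusted p = 0.114). It was 0.20 without shControl replicate 1 and 1.68 without shControl replicate 2, so its size depended on which shControl array was used. The scaling mattered too: it was 1.58 after quantile normalization (limma, adjusted p = 0.0679). With normexp it was 1.12 and passed (limma, adjusted p = 0.0172). The second probe, A_55_P2107288, read −2.15 and −2.70 in clone 2 and −1.35 and −1.46 in clone 3, against −2.91 and −2.65 in shControl. Here the shControl arrays agreed closely and the mean difference was 0.87 ± 0.31 (SE, 95% interval 0.15 to 1.59, limma, adjusted p = 0.0580). That probe passed after quantile normalization, at 1.10 (limma, adjusted p = 0.0411), and after scaling to the median, at 1.16 (limma, adjusted p = 0.0339). It also passed in the authors' normalized values, at 1.10 (limma, adjusted p = 0.0297). Their member differences are nearly those after quantile normalization, so this is not separate support. It was 0.18 with normexp (limma, adjusted p = 0.514) and 0.74 without shControl replicate 1 (limma, adjusted p = 0.120), and did not pass in either. Both Tgfbr2 probes had the same sign of the mean difference.

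**Figure D2:**
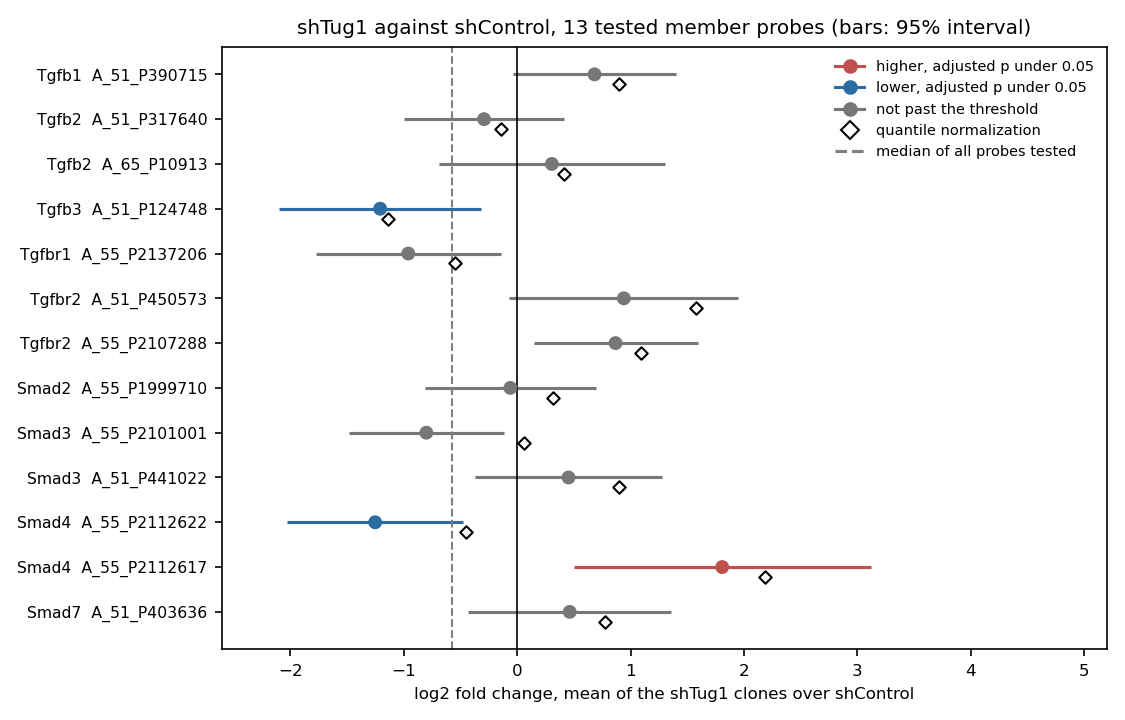
Log2 fold change of the mean of the shTug1 clones over shControl for the 13 tested probes, with filled circles for the fit on 75th-percentile scaling, horizontal bars for its 95% interval, and open diamonds for quantile normalization. Blue and red mark probes past the threshold and the dashed line the median of all probes tested at −0.57. Tgfb3 and 1 Smad4 probe lie left of that line, the other Smad4 probe lies furthest right at 1.81, and the quantile value of Smad3 A_55_P2101001 lies at 0.06.

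Among the SMADs, Smad4, the partner shared by all TGF-β and BMP receptor signals, was measured by a brighter and a dimmer probe with the same transcript accession, and their estimates had opposite signs. A_55_P2112622 read 3.40 and 3.42 in clone 2 and 3.73 and 3.71 in clone 3, against 5.23 and 4.41 in shControl. All 4 shTug1 arrays were below both shControl arrays, and the replicates of each clone differed by 0.03 at most. The mean of the clones was 2.38-fold lower, a log2 difference of −1.25 ± 0.33 (SE, 95% interval −2.02 to −0.48, limma, adjusted p = 0.0260), or −0.68 relative to the median probe. After quantile normalization it was −0.45 (limma, adjusted p = 0.128), so that this call depended on the scaling.

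The other Smad4 probe, A_55_P2112617, read −2.89 and −0.70 in clone 2 and −3.52 and −3.59 in clone 3, against −4.60 and −4.36 in shControl. It was dim, with only 1 of the 2 shControl arrays well above background, and it entered the test through the shTug1 arrays, where it was higher, so its call supports no direction. All 4 shTug1 arrays were above both shControl arrays, but the clone 2 arrays were 2.19 apart. The log2 difference of the mean was 1.81 ± 0.56 (SE, limma, adjusted p = 0.0391), and no fold is given over a level so near background. The difference was 2.19 after quantile normalization, but 0.35 with normexp (limma, adjusted p = 0.445), 1.26 without clone 2 replicate 2, and it did not pass without shControl replicate 1 (limma, adjusted p = 0.191). What sets the 2 Smad4 probes apart was not tested.

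Smad3, which binds DNA and carries much of the TGF-β response, read 4.94 and 4.64 in clone 2 and 5.12 and 5.07 in clone 3, against 5.88 and 5.61 in shControl on A_55_P2101001. All 4 shTug1 arrays were below both shControl arrays, with a mean difference of −0.80 ± 0.29 (SE, limma, adjusted p = 0.0619). After quantile normalization and in the authors' normalized values the difference was 0.06, so not even its sign held across scalings. The dimmer A_51_P441022, well above background on 1 of the shControl arrays, read −4.25 and −4.37 in clone 2 and −3.31 and −3.77 in clone 3, against −3.94 and −4.81 in shControl. Its groups overlapped, and its mean difference was 0.45 (limma, adjusted p = 0.316).

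Smad2, the other receptor-activated SMAD, read 1.85 and 1.81 in clone 2 and 1.83 and 2.06 in clone 3, against 1.59 and 2.31 in shControl. Every shTug1 array fell between the shControl arrays. The mean difference was −0.06, with a 95% interval of −0.82 to 0.70 (limma, adjusted p = 0.889), which still leaves room for a change of either sign.

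Smad7, the inhibitor that is induced by TGF-β and acts back on the type I receptor, read 1.89 and 1.96 in clone 2 and 1.96 and 1.99 in clone 3, against 0.88 and 2.08 in shControl. The 4 shTug1 arrays spanned 0.10 and lay inside the span of the shControl arrays. The mean difference was 0.46 (95% interval −0.43 to 1.36, limma, adjusted p = 0.343). It was −0.13 without shControl replicate 1 and 1.06 without shControl replicate 2 (limma, adjusted p = 0.00988), so the sign turned on 1 shControl array.

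Each clone was also compared with the same shControl arrays, which both comparisons therefore share. In clone 2, Tgfb3 was 3.02-fold lower (log2 difference −1.59 ± 0.44, SE, limma, adjusted p = 0.0264). Smad4 was 2.65-fold lower on A_55_P2112622 (−1.41 ± 0.38, SE, limma, adjusted p = 0.0252). On the dim A_55_P2112617, with the limit given above, the difference was 2.69 ± 0.65 (SE, limma, adjusted p = 0.0192). These were the 3 calls for clone 2, 2 lower and 1 higher, where 30.9% of all probes were lower and 12.4% higher. Smad3 on A_55_P2101001 (−0.95, limma, adjusted p = 0.0534) and Tgfbr2 on A_51_P450573 (1.14, limma, adjusted p = 0.0955) did not pass, although both clone 2 arrays were on 1 side of both shControl arrays. The groups did not overlap in 6 of the 13 member probes, 4 lower and 2 higher, against 58.1% lower and 21.0% higher over all probes. The higher ones include the dim Smad4 probe.

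In clone 3, none of the 13 member probes passed (limma), where 4.21% of all probes were lower and 4.78% higher, and 4 member probes had an unadjusted p under 0.05, where 35.3% of all probes did. Those 4 were Tgfb1 (1.12 ± 0.36, SE, limma, adjusted p = 0.0787), Tgfbr1 (−1.04 ± 0.40, SE, limma, adjusted p = 0.117), Tgfbr2 on A_55_P2107288 (1.38 ± 0.36, SE, limma, adjusted p = 0.0535) and Smad4 on A_55_P2112622 (−1.10 ± 0.38, SE, limma, adjusted p = 0.0963). The arrays of clone 3 lay below both shControl arrays in 5 member probes, where 45.3% of all probes did, and above them in 4, where 19.0% did. Those above include the dim probes Smad3 A_51_P441022 and Smad4 A_55_P2112617. Both were tested only through the shTug1 arrays, so this count is no sign of an excess. After quantile normalization Tgfb1 was 1.33 higher in clone 3 (limma, adjusted p = 0.0444) and Tgfbr2 on A_55_P2107288 was 1.61 higher (limma, adjusted p = 0.0466), so that 2 member probes were higher and none lower there, where 5.06% of all probes were higher and 2.96% lower. Without shControl replicate 2, 4 member probes were higher and 3 lower in clone 3, where 14.2% of all probes were higher and 37.1% lower.

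**Figure D3:**
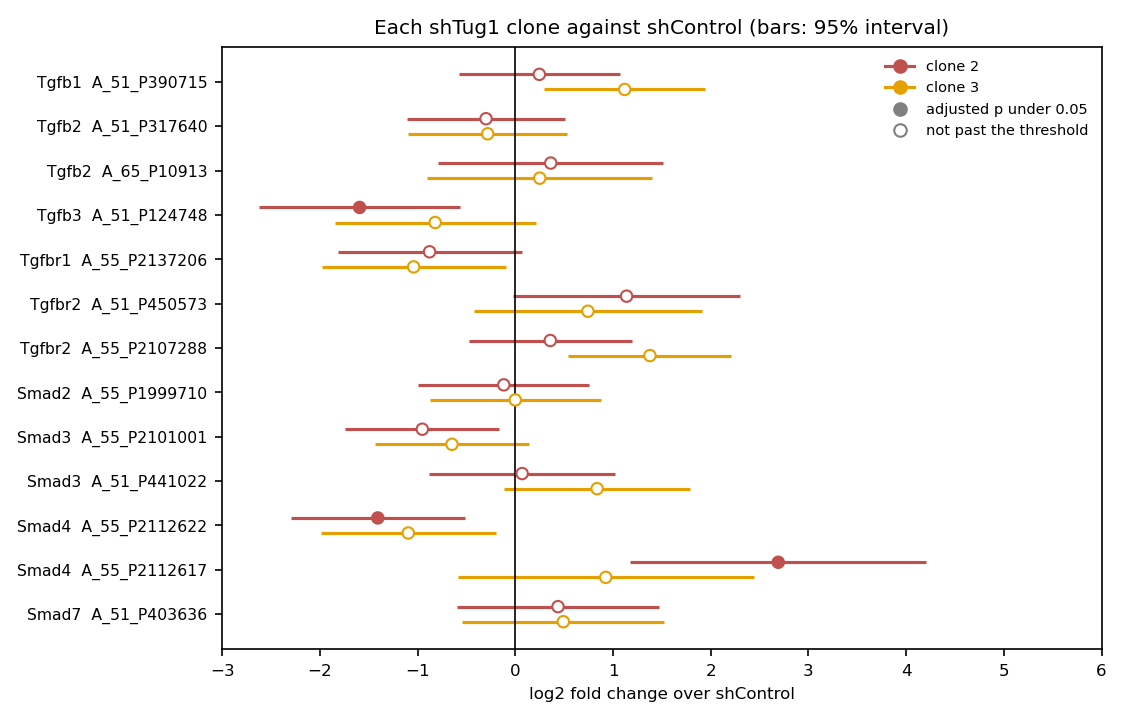
Log2 fold change over shControl for each of the 13 tested probes, with clone 2 in red above clone 3 in orange, bars for the 95% interval, and filled symbols where the adjusted p was under 0.05. Filled symbols appear for clone 2 at Tgfb3 (−1.59) and at both Smad4 probes (−1.41 and 2.69), and for no probe of clone 3.

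The difference between the clones was tested directly, on arrays that shared 1 scan time. No member probe passed (limma), where 1.48% of all probes were lower in clone 3 and 0.384% higher, and 3 member probes had an unadjusted p under 0.05, where 12.9% of all probes did. Tgfb1 was 0.87 higher in clone 3 than in clone 2 in its estimate (95% interval 0.05 to 1.70, limma, adjusted p = 0.376), and Tgfbr2 on A_55_P2107288 was 1.02 higher (95% interval 0.19 to 1.85, limma, adjusted p = 0.307). Smad4 on A_55_P2112617 had an estimate of −1.77 (95% interval −3.28 to −0.25, limma, adjusted p = 0.332), and of −2.86 without clone 2 replicate 1, where it passed (limma, adjusted p = 0.0207). For Tgfb3 the estimate was 0.77 (95% interval −0.26 to 1.80, limma, adjusted p = 0.382), so a call against shControl for clone 2 and none for clone 3 was not shown to be a difference between the clones. Both clone 3 arrays were above both clone 2 arrays in 7 member probes and below in 2, against 56.4% and 18.6% of all probes.

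Other genes that act around these members were described through a list of 46 pathway genes (co-receptors, latency proteins, further SMADs and regulators), of which 40 were tested by their brightest probe. Of these, 6 were higher, 13 were lower and 21 did not pass (limma), where 10.0% of all genes were higher and 29.6% lower. The list's median difference was −0.67, against −0.64 over all genes. After quantile normalization 6 were higher and 7 lower, where 11.5% and 14.4% of all genes were, with a median of −0.22 against −0.24. The list's median was thus close to that of all genes on either scale. The higher genes included Strap, which binds SMAD7 and the receptors (2.28, limma, adjusted p = 0.0263, with 0.98 and adjusted p = 0.0947 on its other probe), Itgav, the αv integrin that helps to release latent TGF-β (1.40, limma, adjusted p = 0.0340), and Smurf1, a ubiquitin ligase recruited by SMAD7 (1.25, limma, adjusted p = 0.0211). The others that were higher, Smurf2, Wwp1 and Ppm1a, were dim on some arrays. They may have entered the test through the groups where they were higher, so their calls support no direction. The count of 6 includes them. Lower genes included the receptors Acvr2b (−1.77, limma, adjusted p = 0.0149) and Acvrl1 (−1.63, limma, adjusted p = 0.0235), the SMAD phosphatase Ctdsp1 (−1.61, limma, adjusted p = 0.0179) and Lrrc32, which holds latent TGF-β at the cell surface (−1.61, limma, adjusted p = 0.0206). Without shControl replicate 1, the difference was 1.06 for Strap, 0.78 for Itgav, which no longer passed, and 1.14 for Smurf1. It was −1.35 for Acvr2b, −0.95 for Acvrl1, −1.15 for Ctdsp1 and −1.02 for Lrrc32. Acvr1b, Acvr1c, Bmpr1b, Itgb6, Itgb8 and Bambi were well above background on no array.

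Of 30 genes known as TGF-β targets, 29 were tested, of which 3 were higher, 8 lower and 18 did not pass (limma), or 10.3% higher and 27.6% lower, where 10.0% and 29.6% of all genes were. Their median difference was −0.32, against −0.64 over all genes, and after quantile normalization it was 0.34 against −0.24, with 4 higher and 2 lower, where 11.5% of all genes were higher and 14.4% lower. Cnn1, the smooth muscle protein calponin, had the largest difference of this list: it read −2.19 and −2.37 in clone 2 and −1.04 and −1.21 in clone 3, against 2.93 and 1.57 in shControl. It was 15.5-fold lower (−3.95, limma, adjusted p = 0.00575), a larger difference than that of any member. With 1 array left out the difference of Cnn1 was −4.64 to −3.27. Cdh2, N-cadherin, was lower (−1.74, limma, adjusted p = 0.0139), but did not pass after quantile normalization (−0.76, limma, adjusted p = 0.0701) or on its other probe (−0.81, limma, adjusted p = 0.0678). Ltbp2, a latent TGF-β binding protein family member, was lower (−1.51, limma, adjusted p = 0.0146). Tagln, transgelin, was lower (−1.30, limma, adjusted p = 0.0203), but differed by −0.07 after quantile normalization (limma, adjusted p = 0.812). Lox, which crosslinks collagen, was higher (3.40, limma, adjusted p = 0.0220), but by 1.63 without shControl replicate 1, and its other probe did not pass (0.77, limma, adjusted p = 0.0632). Zeb1, a transcription factor of the mesenchymal programme, was 1.68 higher (limma, adjusted p = 0.0235) and Col4a1, a basement membrane collagen, 1.55 higher (limma, adjusted p = 0.0243). Neither passed without shControl replicate 1 (limma, adjusted p = 0.0580 and 0.114).

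The related BMP, activin and GDF ligands and their antagonists made a list of 21 genes, 16 of them tested, with 3 higher, 6 lower and 7 that did not pass (limma), where 10.0% of all genes were higher and 29.6% lower. The median difference was −0.83, against −0.64 over all genes. After quantile normalization it was −0.60, against −0.24, with 3 higher and 4 lower, where 11.5% of all genes were higher and 14.4% lower. Inhba, the activin A subunit whose signal runs through SMAD2 and SMAD3, read 1.86 and 2.18 in clone 2 and 1.58 and 1.77 in clone 3, against −1.27 and 0.01 in shControl. It was 5.57-fold higher (2.48, limma, adjusted p = 0.0109). Twsg1, a BMP-binding protein, was 2.04 higher (limma, adjusted p = 0.0267), but by 0.995 without shControl replicate 1. Bmp6 was 1.80 higher (limma, adjusted p = 0.0140). In shControl Bmp6 read −3.66 and −2.85, where the lowest signals well above background were −4.09 and −4.45. Its smallest difference over the alternative settings was 0.81, so its size is uncertain. Bmp4, a ligand of kidney development, read 3.43 and 3.42 in clone 2 and 4.22 and 4.21 in clone 3, against 6.47 and 5.50 in shControl. It was 4.48-fold lower (−2.16, limma, adjusted p = 0.0107), with a smaller difference of −1.31 after quantile normalization (limma, adjusted p = 0.0172). Bmp1, a protease that is not a TGF-β family ligand but processes collagen and latency proteins, was lower on all of its probes, at −2.10, −1.30 and −1.62 (limma, adjusted p = 0.0139, 0.0238 and 0.0240). Its brightest probe differed by −1.26 after quantile normalization (limma, adjusted p = 0.0217). Bmp7, which opposes TGF-β in kidney scarring, was lower (−1.90, limma, adjusted p = 0.0188), as was Bmp2 (−1.71, limma, adjusted p = 0.0116). In clone 2 Bmp7 read −5.05 and −5.27, near the lowest signals well above background on those arrays (−5.28 and −5.38), so the size of its difference is uncertain.

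**Figure D4:**
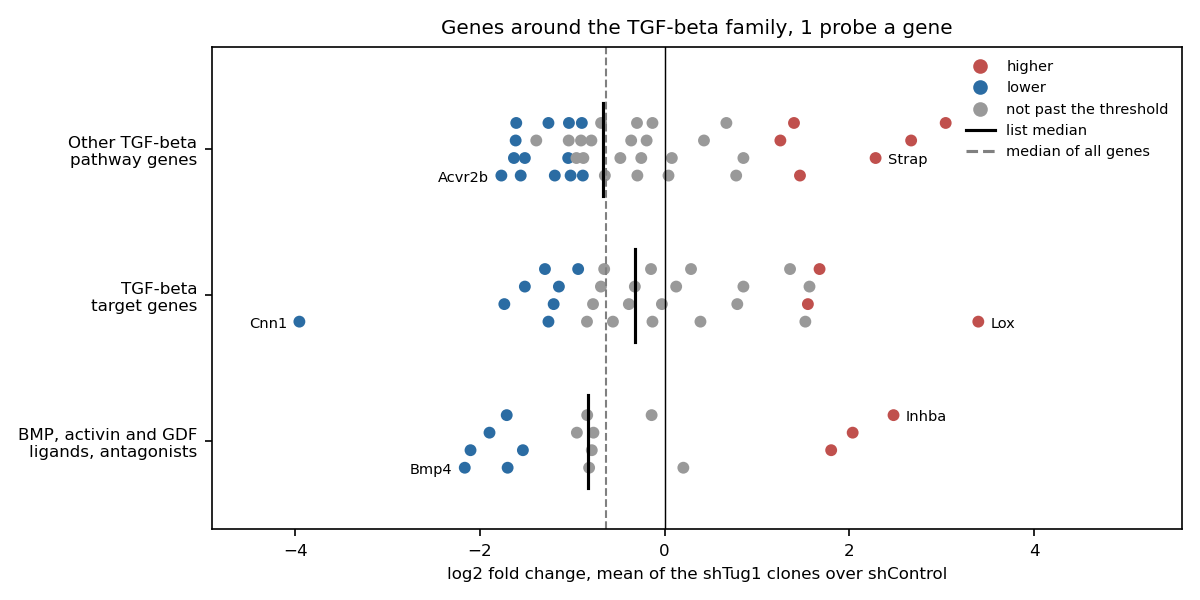
Log2 fold change of the mean of the shTug1 clones over shControl for the tested genes of the 3 lists, by 1 probe per gene, with red for higher, blue for lower and grey for not past the threshold. Black bars are the list medians (−0.67, −0.32 and −0.83 down the plot) and the dashed line is the median of all genes at −0.64. Each list has genes past the threshold in both directions.

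Markers of other cell types were also set beside these results. Over all genes 29.6% were lower and 10.0% higher, and each count of markers below is to be read against those shares. Of 9 mesangial and fibroblast markers, 5 were above background on all arrays and tested, of which 2 were lower and 0 higher. Their summed linear signal, relative to the 75th percentile, was 214 and 224 in clone 2 and 319 and 239 in clone 3, against 554 and 565 in shControl. Of the same list, Itga8 and Thy1 were above background on some arrays, and Pdgfra and Des on no array. Acta2 and Col1a1 are shared by this list and the target list. The summed podocyte markers were 63.4 and 66.3 in clone 2 and 61.2 and 65.4 in clone 3, against 117 and 127 in shControl. Of 6 endothelial markers 2 were tested, with 1 lower and a summed signal of 0.883 to 1.18 in the clones, against 1.39 and 2.41 in shControl, and Tek, Emcn and Tie1 were above background on no array. Of 8 tubular and parietal markers 6 were tested, with 1 higher and 2 lower and a summed signal of 10.2 to 12.8 in the clones, against 15.7 and 22.8 in shControl, and Slc12a1 and Krt8 were above background on no array. Of 5 immune markers 4 were tested, with 1 lower and a summed signal of 2.42 to 3.76 in the clones, against 7.68 and 12.8 in shControl. All these sums are on the 75th-percentile scale, on which the median difference over all genes was −0.64. They were not computed after another normalization, and a linear sum weighs bright genes most. The part of these cell types in the values of the pathway genes was not tested.

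For the ligand, the receptor and the SMAD with the brightest probe, the genes with the most similar values over the 6 arrays were taken by Pearson correlation among 12327 genes. These arrays share 3 groups and 2 scan times, so the coefficients describe only these values. Tgfb2 was most like Tnxb (r = 0.984), Duox1 (r = 0.981) and Klk9 (r = 0.979), and 65 genes had r over 0.9 with it. Tgfbr2 was most like Spp1 (r = 0.998), Usp38 (r = 0.997) and Trim13 (r = 0.997), with 499 genes over 0.9. Smad3 was most like Dcaf12l2 (r = 0.999), Dab2ip (r = 0.997) and Atat1 (r = 0.997), with 4278 genes over 0.9. The profile of Smad3, with both shControl arrays highest, was thus common on these arrays, and that of Tgfb2 was matched by fewer genes.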

How the data were processed

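RNA was measured on 6 one-colour Agilent mouse arrays. The deposited scanner files hold an intensity per spot, which is background-subtracted and spatially detrended per the file headers, and which was made, per the submitters' processing notes, with version 11.0.1.1 of Agilent Feature Extraction. The log2 values deposited for the series, normalized by the authors in a way not given in the sources used here, cover 19819 probes, 11 of them member probes. Set against the scanner values they are on a log2 scale, and their member differences were within 0.00139 of those after quantile normalization.

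Control spots and spots marked as outliers were left out, log2 intensities were set relative to the 75th percentile of each array, and spots of a probe were averaged. Of 39429 probes, 27234 were named through the accessions of RefSeq genes. Testing a probe required that, in 1 or more of the groups, each of the arrays read it well above background. Of 25555 such probes, 14 were lost to outlier marks. limma 3.58.1 in R 4.3.3 (data.table package, version 1.17.8) fitted a mean for each of the 3 groups (degrees of freedom: 3 residual, 4.61 prior) with Benjamini-Hochberg adjustment over 25541 probes, two-sided, threshold 0.05. The number of arrays limits the precision. The fit was checked on simulated data.

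The members and gene lists were chosen with earlier results of these data known. Named genes were all members, Tug1, up to 4 genes per list and direction with the largest changes among those above background on all arrays and on 1 side of both controls, and the 3 most similar genes of 3 members. Immune markers matched the array for 4 of 5 genes. Alternatives were quantile normalization, median scaling, normexp with offset 50 (run on median signals, since the mean signal planned for it is not a column of the files), other filters, the brightest probe per gene, the deposited values, a replicate block, an intensity trend and each array left out. Same-numbered arrays deviated with correlations of −0.03, 0.12 and −0.09, so replicate numbers were not taken as pairs.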

Additional observations from a re-analysis of the deposited data

How the results depend on the processing

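The calls of single members changed with scaling and with the arrays used. With quantile normalization, 3 member probes, the dim Smad4 A_55_P2112617 among them, were higher and 0 lower for the mean of the clones (all probes, 13.5% each). There 1 was lower in clone 2 (all probes, 14.3%) and 2 were higher in clone 3 (all probes, 5.06%). On that scale 7 pathway and 2 target genes were lower (all genes, 14.4%). With median scaling, 3 member probes, again with that Smad4 probe, were higher and 1 lower for the mean (all probes, 13.8 and 18.2%), and 2 were higher in clone 3 (all probes, 5.27%). On that scale 8 pathway and 5 target genes were lower. In the deposited values, 2 member probes were higher and 1 lower for the mean (all probes, 19.4% lower), 1 was lower in clone 2 and 2 were higher in clone 3, and 7 pathway and 3 target genes were lower. With normexp, 5 member probes were lower for the mean, 5 in clone 2 and 2 in clone 3, where 57.3, 59.0 and 25.1% of all probes were. For the mean, 22 pathway genes and 10 BMP, activin and GDF genes were then lower, and 6 target genes higher (all probes, 9.96% higher). Without the filter, 0 member probes were higher and 1 lower for the mean (all probes, 6.70 and 19.9%). With only probes above background on all arrays, 4 member probes were lower for the mean (all probes, 37.3%). There 0 were higher in clone 2 and 1 in clone 3 (all probes, 9.11 and 6.40%), and 3 pathway genes were higher (all probes, 9.80%). With the brightest probe per gene, 0 members were higher for the mean and 0 in clone 2 (all probes, 10.2% each). With an intensity trend 1 was higher in clone 3 (all probes, 5.86%).

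Leaving out 1 array at a time gave 0 to 3 higher and 0 to 4 lower member probes for the mean, 0 to 3 and 0 to 4 for clone 2, 0 to 4 and 0 to 3 for clone 3, and 0 higher and 0 to 1 lower for clone 3 minus clone 2. The highest counts against shControl came without shControl replicate 2 (all probes for the mean, 16.9% higher and 47.8% lower), and the 1 lower probe between clones without clone 2 replicate 1. For the mean, no member was lower without any 1 of the shTug1 arrays. The lists then had 0 to 8 higher and 0 to 19 lower pathway genes, 0 to 8 and 1 to 12 target genes, and 0 to 3 and 0 to 10 BMP, activin and GDF genes. Over all probes, the mean comparison had 3009 higher and 7042 lower, with 488 and 230 without clone 3 replicate 2, and 14633 lower with normexp.

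Among the member differences given in the text and the mean differences of Tug1, signs turned in the cases below, none of which passed the threshold in the fit reported unless named. Smad2 was 0.32 with quantile normalization and in the deposited values, 0.23 with median scaling, 0.091 with normexp, and −0.42 to 0.30 with 1 array left out. Smad3 A_55_P2101001 was 0.061 for the mean and 0.17 for clone 2 with quantile normalization, and 0.062 and 0.17 in the deposited values. Tgfb2 A_51_P317640 was 0.0018 with median scaling, and A_65_P10913 was −0.068 to 0.68 with 1 array left out. Smad7 was −0.13 to 1.06 with 1 array left out. With normexp, Smad3 A_51_P441022 was −0.62 for the mean, Tgfb1 −0.27 and Tgfbr2 A_55_P2107288 −0.24 for clone 2, and Smad4 A_55_P2112617 −0.22 for clone 3. Tgfb1 in clone 2 was −0.0015 to 0.49 with 1 array left out. Tug1 A_52_P599162 was −0.27 with normexp and −0.029 to 0.36 with 1 array left out, and Tug1 A_51_P119401, higher in the fit reported (2.39) but above background on no shControl array, was −0.023 with normexp. The cause was not tested.

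The replicate numbers were not taken as pairs. With a replicate block, the member counts did not change (1 higher and 2 lower for the mean, 1 and 2 for clone 2, 0 and 0 for clone 3 and for clone 3 minus clone 2), 6 pathway genes were higher and 10 lower, and over all probes 592 were lower in clone 3 than in clone 2, against 377. A fit of only the 4 shTug1 arrays, chosen after seeing the data, called 0 member probes and gave 162 higher and 669 lower probes over the array. A fit with the slide, as read from the scan time, as a block was not run, because each scan time held only shControl or only shTug1 arrays. Dim probes limit Smad3 A_51_P441022 and Smad4 A_55_P2112617, each above background on 1 of 2 shControl arrays.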
